A study of Mus musculus with 2 samples.

Results

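The 1000 tallest distal open regions of the newborn mouse urinary bladder were taken from 29790 regions that were open in both DNase-seq libraries and lay away from any annotated gene start. Overlapping peaks of the replicates were merged, and 51823 merged regions on chromosomes 1 to 19 held a peak of each. A region was distal if its midpoint lay more than 1 kb from every transcription start site (TSS) of GENCODE M21. Within each replicate the regions were ranked by the tallest peak they held, and the 1000 with the highest mean rank were kept, so rank 1 is the tallest and the members were chosen by height. The other 28790 shared distal regions served for comparison. The tissue was the urinary bladder of 4-day-old females of strain B6CASTF1/J, an F1 hybrid of C57BL/6J and CAST/EiJ, and no treated or control group was sampled. Both biological replicates belong to that single group. Per the labels, they came from differently numbered females that share a donor identifier, so the spread between them may be partly technical.

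DNase-seq maps where the enzyme DNase I can cut chromatin, which happens where nucleosomes are displaced by bound proteins. Distal open sites are known to include enhancers, insulators bound by the zinc finger protein CTCF, unannotated promoters and tRNA genes. Apparent open sites can also arise at sequences that an assembly holds in fewer copies than the genome does, because reads of all copies then fall on few places. Within an open site, a footprint is a short stretch protected from cutting by a bound protein.

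All coordinates are 1-based positions on mm10, and every sequence below is the plus strand, read from the RefSeq copy of that assembly. The first set shows members whose sequence also occurs elsewhere in the genome, because such copies hold 7 of the 10 tallest places. Capitals in each pair mark the longest word that both members share, which runs on opposite strands: 104 bases for ranks 5 and 17, and 24 bases for ranks 7 and 10.
rank 5, chr6:49236421-49236620: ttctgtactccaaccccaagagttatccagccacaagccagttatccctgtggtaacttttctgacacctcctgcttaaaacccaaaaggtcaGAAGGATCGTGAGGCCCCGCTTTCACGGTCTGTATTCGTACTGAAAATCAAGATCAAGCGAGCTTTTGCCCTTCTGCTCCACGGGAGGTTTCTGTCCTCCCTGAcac
rank 17, chr12:78350861-78351100: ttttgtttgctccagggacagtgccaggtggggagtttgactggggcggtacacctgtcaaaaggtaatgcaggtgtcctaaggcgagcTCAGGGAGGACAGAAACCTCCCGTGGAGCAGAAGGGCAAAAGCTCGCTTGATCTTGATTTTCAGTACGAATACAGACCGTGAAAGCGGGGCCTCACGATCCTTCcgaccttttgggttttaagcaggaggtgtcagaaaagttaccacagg
rank 7, chr13:112578161-112578320: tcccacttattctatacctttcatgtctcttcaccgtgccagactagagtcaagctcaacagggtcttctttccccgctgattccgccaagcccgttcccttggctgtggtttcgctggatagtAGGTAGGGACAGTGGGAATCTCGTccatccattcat
rank 10, chr3:5860361-5860530: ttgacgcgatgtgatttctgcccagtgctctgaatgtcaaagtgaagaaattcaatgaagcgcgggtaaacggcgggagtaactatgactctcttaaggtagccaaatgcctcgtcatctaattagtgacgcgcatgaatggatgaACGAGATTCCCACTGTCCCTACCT

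Another tall member, rank 6, has no copy elsewhere but holds an internal duplication. Capitals mark its 2 matches to the AP-1 motif TGANTCA, at positions 126511638 and 126511715, and the second lies 77 bases after the first.
rank 6, chr10:126511601-126511820: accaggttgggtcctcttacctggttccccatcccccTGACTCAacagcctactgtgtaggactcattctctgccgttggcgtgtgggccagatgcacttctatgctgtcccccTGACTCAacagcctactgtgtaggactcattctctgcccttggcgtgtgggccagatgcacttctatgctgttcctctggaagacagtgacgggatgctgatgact

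The next set shows the 150 central bases for each motif that the results turn on. They come from the tallest member that holds it and does not align elsewhere by the cut-off given below. Members in annotated untranslated regions or with an internal duplication were passed over. Capitals mark the motif matches. CTCF is shown at a CpG-rich member (rank 38) and at one that is not (rank 64). Rank 14 holds the cyclic AMP response element (CRE) TGACGTCA, rank 12 the SP/KLF site GGGCGGGG, rank 37 the NRF1 site GCATGCGC, rank 26 the USF E-box CACGTG, rank 25 the E-box CAGCTG and rank 32 the AP-1 site TGANTCA. Rank 13, upstream of Ptma, holds the NF-Y site CCAAT and the TEAD site GGAATG.
rank 38, chr7:73618426-73618575: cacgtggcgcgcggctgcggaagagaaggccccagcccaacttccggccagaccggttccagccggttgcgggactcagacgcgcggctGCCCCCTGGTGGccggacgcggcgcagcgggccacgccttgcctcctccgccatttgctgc
rank 64, chr19:5529446-5529595: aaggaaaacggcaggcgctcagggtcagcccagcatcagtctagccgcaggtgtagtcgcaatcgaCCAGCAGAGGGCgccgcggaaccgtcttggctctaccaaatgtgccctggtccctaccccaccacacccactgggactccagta
rank 14, chr6:86472331-86472480: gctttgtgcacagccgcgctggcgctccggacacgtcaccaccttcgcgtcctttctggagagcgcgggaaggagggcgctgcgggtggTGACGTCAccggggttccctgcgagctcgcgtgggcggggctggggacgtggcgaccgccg
rank 12, chr14:65343781-65343930: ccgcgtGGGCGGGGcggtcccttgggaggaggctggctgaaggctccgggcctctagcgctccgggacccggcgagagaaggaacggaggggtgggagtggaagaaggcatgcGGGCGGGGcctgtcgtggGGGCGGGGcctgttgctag
rank 37, chr5:142367361-142367510: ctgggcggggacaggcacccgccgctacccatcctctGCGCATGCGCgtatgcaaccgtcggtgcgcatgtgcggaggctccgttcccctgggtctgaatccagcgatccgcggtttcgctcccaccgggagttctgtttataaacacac
rank 26, chr12:108758031-108758180: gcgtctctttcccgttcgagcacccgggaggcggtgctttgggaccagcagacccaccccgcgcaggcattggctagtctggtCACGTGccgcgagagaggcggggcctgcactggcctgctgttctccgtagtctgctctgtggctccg
rank 25, chr11:69097056-69097205: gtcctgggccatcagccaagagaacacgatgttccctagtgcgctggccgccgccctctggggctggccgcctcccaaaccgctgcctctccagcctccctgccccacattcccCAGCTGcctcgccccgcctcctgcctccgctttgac
rank 32, chr15:73067566-73067715: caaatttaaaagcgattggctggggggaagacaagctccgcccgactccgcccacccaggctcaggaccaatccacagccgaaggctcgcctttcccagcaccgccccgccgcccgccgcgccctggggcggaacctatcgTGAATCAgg
rank 13, chr1:86525331-86525480: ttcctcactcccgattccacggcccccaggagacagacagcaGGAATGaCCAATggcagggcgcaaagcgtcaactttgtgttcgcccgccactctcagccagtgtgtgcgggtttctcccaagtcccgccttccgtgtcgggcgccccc

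The last sequence is the tallest member over a tRNA gene, with the gene (RefSeq n-TNgtt14, encoded on the minus strand) in capitals.
rank 55, chr5:149229001-149229300: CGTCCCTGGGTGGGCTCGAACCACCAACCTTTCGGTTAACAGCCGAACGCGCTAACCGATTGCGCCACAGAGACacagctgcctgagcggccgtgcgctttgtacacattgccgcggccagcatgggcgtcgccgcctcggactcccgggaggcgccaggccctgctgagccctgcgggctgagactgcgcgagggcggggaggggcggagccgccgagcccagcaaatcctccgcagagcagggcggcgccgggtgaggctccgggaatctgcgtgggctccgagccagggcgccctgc

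The values that chose the members were their heights, so the heights are given as a description and were not tested. Replicate 1 gave member heights with a median of 3.38, from 2.29 to 51.7. Replicate 2 gave a median of 2.48, from 1.71 to 60.6. The other shared distal regions had medians of 0.638 in replicate 1 and 0.575 in replicate 2. The heights of a sample came in even steps, with every one a whole number of them (tolerance 0.02 of a step), and the member medians stood for 725.5 steps in replicate 1 and 596 in replicate 2. The scale of the heights is not stated. The 95% intervals below are exact Poisson intervals that assume 1 step to be 1 count, and they cover counting error only. At the lower edge, rank 1000 (chr5:106802481-106802680, intergenic, nearest protein-coding start that of Hfm1) had 2.84 in replicate 1 and 1.91 in replicate 2. Just outside, rank 1001 (chr6:108659301-108659680, in a noncoding exon near Bhlhe40) had 2.36 in replicate 1 and 2.43 in replicate 2. The intervals of these neighbours in rank, 2.61 to 3.07 against 2.16 to 2.58 in replicate 1 and 1.74 to 2.10 against 2.24 to 2.64 in replicate 2, lay in opposite order in the replicates.

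Copies elsewhere in the genome came first, because they decide which members can be read at their own position. By exact words, 34 of the 1000 members (3.4%) had at least 50% of their 36-base words at another place in mm10, against 2.52% of the other shared distal regions. By alignment, 58 members matched another place at 90% identity or more over at least 50% of their length, and all 34 were among them. Throughout, aligning or matching elsewhere means by this cut-off, so shorter or weaker matches of the other members are not counted. In the next 1000 regions by rank, 18 aligned elsewhere. The copies crowded at the top: 7 of the 10 tallest members aligned elsewhere, 11 of the tallest 20, 20 of the tallest 100, and 36 of the tallest 500. No member held a 36-base word of the mitochondrial genome.

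Rank 4 (chr9:3002041-3002220, lying fully in masked repeat in an intron of the predicted genes Gm10722 and Gm26870) had 33.05 in replicate 1 and 13.8 in replicate 2, and it aligned to 353 places. Rank 5 (chr6:49236421-49236620, intergenic, 21564 bp upstream of Igf2bp3) had 22.6 in replicate 1 and 16.9 in replicate 2. Rank 7 (an intron of Il31ra on chromosome 13) had 19.4 in replicate 1 and 11.8 in replicate 2, and aligned to 16 places on 11 chromosomes. These were higher in replicate 1, like most members, while the copied members as a set went either way.

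Rank 10 (intergenic on chromosome 3) had 17.02 in replicate 1 and 6.43 in replicate 2, with all its words found elsewhere and 18 aligned places. Rank 11 (chr11:3127101-3127300, in an exon of the pseudogene Pisd-ps1) had 10.2 in replicate 1 and 6.22 in replicate 2. Rank 17 (an intron of Gphn on chromosome 12) had 9.36 in replicate 1 and 4.94 in replicate 2. Together with ranks 4, 5 and 7, these are the 6 tallest members copied by words, and each was higher in replicate 1.

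Members also matched one another. Alignment joined 17 members into 6 families, the largest holding ranks 3, 5, 17 and 18 on chromosomes 9, 6, 12 and 16. Ranks 7 and 10 formed a family, and ranks 4, 45 and 158 formed one near the start of chromosome 9. A family on chromosome 19 held ranks 214, 229 and 856, of which only rank 229 aligned elsewhere by the cut-off. Rank 229 aligned to 2 places on that chromosome. Its best match, 110 bases at 93.6% identity, lay inside rank 214. The letters of ranks 5, 7, 10 and 17 resemble those of 28S ribosomal RNA, which the genome carries in many copies. A full 28S gene was not among the sequences searched, so this likeness was not tested. A match to annotated ribosomal sequence was found for rank 848 (intergenic on chromosome 6, heights 2.29 in replicate 1 and 4.10 in replicate 2): 111 of its bases aligned at 99.1% identity to chr17:39846681-39846791, inside Rn18s-rs5, an 18S ribosomal RNA related sequence.

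One locus held 14 of the 58 aligned members. The stretch chr11:3123861-3181580 at Sfi1, which encodes a centrosome protein, held 14 members, all of which aligned elsewhere, and 12 of them found their best match on 1 unplaced scaffold. Their heights ran from 2.45 to 10.2 in replicate 1 and from 2.16 to 6.22 in replicate 2. By exact words, 11 of the 14 were copied, and 10 further shared distal regions were assigned to Sfi1 without being members.

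The log2 ratio between replicates was more widely spread at copied members, while its median was nearer to 0. The log2 ratio of replicate 2 over replicate 1 had a median of -0.20 and an SD over regions of 0.56 among the 34 members copied by words, against -0.45 and 0.25 among the other 966 members. Replicate 2 gave the higher value at 24 of the 58 aligned members and at 32 of the other 942 members. Among the other shared distal regions, 34.9% were higher in replicate 2, with a median log2 ratio of -0.17. The heights of all members are set out in the plot of replicate 2 against replicate 1.

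**Figure D1:**
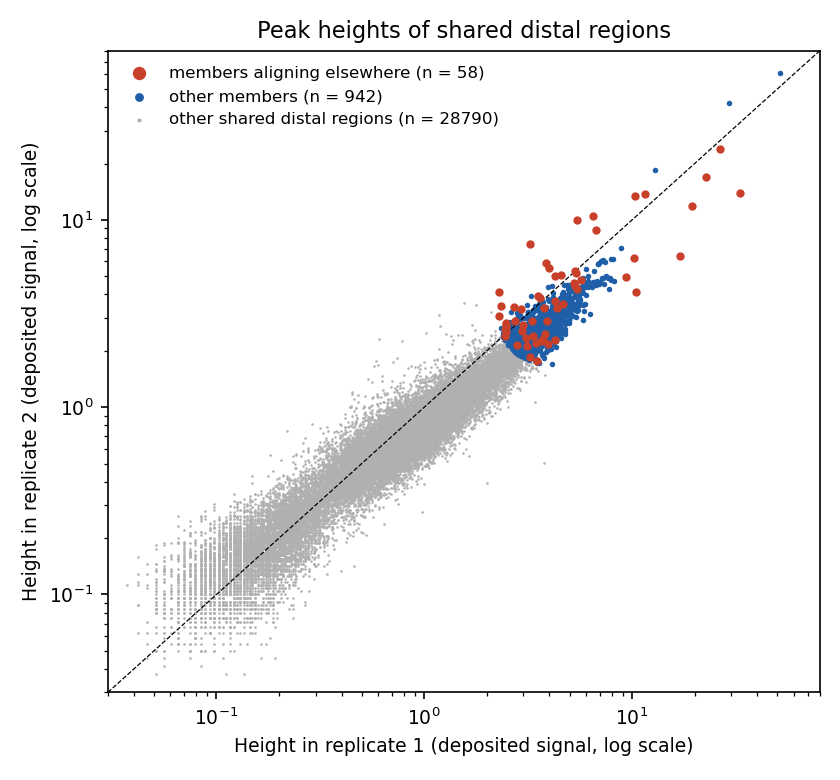
Height of each shared distal region in replicate 1 (horizontal axis) against replicate 2 (vertical axis), both log scales of the deposited signal, with the 58 members that align elsewhere in red, the other 942 members in blue and the 28790 other regions in grey; the dashed line marks equal heights. Most blue members lie below the line, the red ones scatter to both sides, and 3 blue points (ranks 1, 2 and 6) stand apart above 12 in both replicates.

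Of the 12 tallest members not copied by words (ranks 1, 2, 3, 6, 8, 9, 12, 13, 14, 15, 16 and 18), 4 still aligned elsewhere. They were ranks 3, 8, 9 and 18. Rank 3 (chr9:123461901-123462100) lies in the untranslated region of Lars2, the mitochondrial leucyl-tRNA synthetase, and had 26.6 in replicate 1 and 23.8 in replicate 2. Rank 8 (an intron of Jarid2, a Polycomb-associated protein, chr13:44869561-44869700) had 11.5 in replicate 1 and 13.7 in replicate 2, and rank 9 (an intron of Aida, chr1:183299241-183299580) had 10.3 in replicate 1 and 13.5 in replicate 2. Rank 18 (intergenic, 11201 bp upstream of Hic2) had 6.73 in replicate 1 and 8.80 in replicate 2. Ranks 8, 9 and 18 were higher in replicate 2, and rank 3 was not.

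Ranks 1, 2 and 6 found no match elsewhere in mm10 by this cut-off and were the tallest members without one, in both replicates. Rank 1 (chr15:99735701-99736060, in the untranslated region of Cers5, a ceramide synthase) had 51.7 in replicate 1 (95% interval 50.7 to 52.7) and 60.6 in replicate 2 (59.6 to 61.6). Rank 2 (chr13:58177641-58177820, in the untranslated region of Ubqln1, a ubiquitin-like protein of protein quality control) had 29.3 in replicate 1 and 42.2 in replicate 2. Rank 6, printed above, lies 75093 bp from the nearest annotated TSS and had 12.9 in replicate 1 and 18.4 in replicate 2. In contrast to most members, all 3 were higher in replicate 2. Within rank 6, 85 bases aligned to the same region at a shift of 77 bases with 96.5% identity. An internal duplication was found in 4 members in all. Whether these mice carry more copies of these sequences than mm10 does was not tested.

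The next members with no copy by either measure began at rank 12. Rank 12 (chr14:65343681-65344020, intergenic, 14538 bp upstream of Zfp395, a zinc finger gene) had 8.86 in replicate 1 (95% interval 8.46 to 9.26) and 7.05 in replicate 2 (6.72 to 7.40). Rank 13 (chr1:86525281-86525520, 1325 bp upstream of Ptma, which encodes the abundant nuclear protein prothymosin alpha) had 8.08 in replicate 1 and 6.21 in replicate 2. Rank 14 (chr6:86472221-86472520, in a noncoding exon of the C87436 locus) had 7.93 in replicate 1 and 6.17 in replicate 2. All 3 were GC-rich, from 61.3% to 72.1%, and higher in replicate 1.

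Rank 15 (chr11:117963461-117963680, 5615 bp downstream of the start of Socs3, a feedback inhibitor of cytokine signalling) had 7.27 in replicate 1 and 6.08 in replicate 2. Rank 16 (chr8:121585441-121585680, 4800 bp upstream of Map1lc3b, which encodes the autophagosome protein LC3B) had 7.37 in replicate 1 and 6.00 in replicate 2. Among members with no alignment elsewhere, the tallest of those after rank 12 had 8.22 in replicate 1 (rank 24) and 6.21 in replicate 2 (rank 13).

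Beyond height, members tended to be richer in GC and CpG than the other regions, though not every member was. The median GC content was 57.8% in members and 53.1% in the other shared distal regions, and the observed over expected CpG ratio had medians of 0.494 and 0.257. With a GC content above 50% and a CpG ratio above 0.6, 348 members (34.8%) counted as CpG-rich, against 7.17% of the other regions. Median width was 200 bp in both sets, and 90% of members were at most 262 bp wide, against 405 bp for the others. Masked repeat covered a median of 0% of a member and 5.75% of another region.

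Members lay nearer to genes. The median distance to the nearest TSS of any kind was 6232 bp for members and 10448.5 bp for the other regions, and to the nearest protein-coding TSS it was 9379 bp and 19790 bp. Intergenic midpoints made up 54.4% of members and 48.6% of the others, and introns 34.4% and 43.3%. Untranslated regions held 4.0% of members and 2.34% of the others, noncoding exons 4.0% and 2.10%, and coding exons 3.2% and 3.68%. RefSeq, an annotation the choice did not use, placed a transcript start within 1 kb of 103 members (10.3%), against 4.53% of the other regions. The counts with RefSeq starts added to the distance rule are given in the closing section. Chromosome 11 held the most members, 117, or 5.89% of its shared distal regions, and still 100 (5.04%) when aligned members were left out. Chromosomes 3, 14 and 16 held the smallest shares, from 2.23% to 2.35%.

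**Figure D2:**
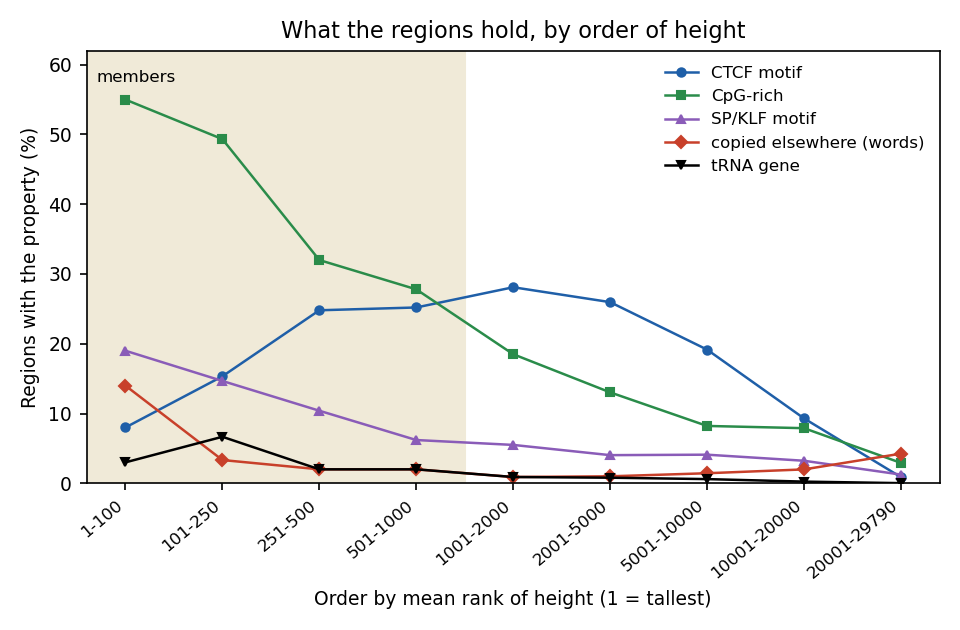
Share of regions with each property (vertical axis, per cent) in bins of rank (horizontal axis, tallest at left; the shaded bins are the members). CpG-rich regions fall from 55 of the tallest 100 to 2.92% in the lowest bin, whereas CTCF matches climb from 8.0% to 28.1% just outside the members and then fall to 0.878%.

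Along the ranks the makeup shifted inside the member set, as the plot of shares by rank shows. CpG-rich regions made up 55 of ranks 1 to 100, 49.3% of ranks 101 to 250, 32.0% of ranks 251 to 500 and 27.8% of ranks 501 to 1000. CTCF matches ran the other way, with 8.0%, 15.3%, 24.8% and 25.2% in the same bins, and reached 28.1% in ranks 1001 to 2000. CRE matches sat at the top: 8 of the first 100 members held one, 4 of the next 150, 1 of the next 250 and 3 of the last 500. SP/KLF matches declined through the bins, at 19 per 100, 14.7%, 10.4% and 6.2%. CTCF matches were thus rarer among the very tallest members than among those lower down.

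To describe the members without counting any of them under more than 1 heading, they were sorted in a fixed order: 58 aligned elsewhere, 26 of the rest lay over tRNA genes, 346 of the rest were CpG-rich or near a RefSeq start, 188 of the rest held a CTCF match, and 382 had none of these. Median heights in replicate 1 were 3.83, 3.79, 3.61, 3.27 and 3.31 in that order, and in replicate 2 they were 3.51, 2.87, 2.61, 2.40 and 2.39. These medians lie close together compared with the range within each set. GC content had a median of 63.5% in the CpG-rich or RefSeq start set and 56.3% in the set with none of these features. The stretch of bases listed without a break at a false discovery rate up to 0.05 was longest at tRNA members and the CpG-rich set. Their medians were 692.5 and 610.5 bp in replicate 1, against 306 bp for CTCF members and 339 bp for the set with none. In replicate 2 they were 421 and 431.5 bp, against 279 and 290 bp, so the gap was smaller there.

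Footprints lay under nearly every member. At least 1 footprint in each replicate overlapped 999 of 1000 members (99.9%), against 74.0% of the other regions, with a median of 4 footprints per member in each replicate and 2 per other region. The exception was rank 1, which had 0 footprints in replicate 1 and 5 in replicate 2. Footprints come from the same reads as the heights, and the part of read depth in this difference was not tested. Every member was also found in the stricter peak list of both replicates. Of the other regions, 66.9% were in that list in replicate 1 and 60.0% in replicate 2. Members were chosen by height in the same libraries, so this is a description only.

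All motifs were searched on both strands in the 150 central bases of each region. CTCF, which binds insulators and the anchors of chromatin loops, had the motif held by the most members. It matched 219 members (21.9%), 10.5% of the other regions and 0.255% of the 150-base windows centred on 20780 protein-coding gene starts. Just below the members the shares were higher than in them, 28.1% in ranks 1001 to 2000 and 26.0% in ranks 2001 to 5000. In the lowest bin of rank the share was 0.878%, so the higher share is not particular to the members. All 222 matches in members were overlapped by a footprint in both replicates, and so were 96.0% of the 3050 matches in the other regions. The matches sat at the middle of the peaks: 84.2% of those in members and 89.1% of those in the other regions lay within 25 bp of the centre. The tallest CTCF member was rank 38 (chr7:73618301-73618680, 76661 bp upstream of Chd2, a chromatin remodeller), with 6.95 in replicate 1 and 4.54 in replicate 2. Of the 219, 112 were intergenic and 25 CpG-rich.

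Motifs of GC-rich promoters were also more frequent in members than in the other regions. SP/KLF sites matched 98 members (9.8%) and 2.87% of the others, NRF1 sites 26 members (2.6%) and 0.670%, ETS sites (CCGGAAGT) 18 members (1.8%) and 0.261%, and CRE sites 16 members (1.6%) and 0.340%. Among gene starts the shares were 15.5% for SP/KLF, 2.18% for NRF1, 3.66% for ETS and 1.6% for CRE. These words are rich in G, C and CpG, as the members are, and the part of base composition in the shares was not tested. In members, 82.2% of SP/KLF matches, 84.2% of NRF1 matches and 93.8% of CRE matches had a footprint in both replicates. In the other regions the values were 46.0%, 81 of 225 matches and 47.5%. Members held more footprints of any kind than the other regions. The part of read depth in these contrasts, and in those of the other motifs, was not tested.

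The 16 CRE members, listed because that motif crowded at the top, were looked at after the counts were seen. Beside rank 14 they included rank 28 in an intron of Mxi1, a MAX-network repressor, with 7.95 in replicate 1 and 4.79 in replicate 2. Rank 43 near Gnai2, a G protein subunit, had 6.14 in replicate 1 and 4.74 in replicate 2, and rank 68, 1050 bp upstream of Id1, had 5.75 in replicate 1 and 4.12 in replicate 2. None of the 16 aligned elsewhere.

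Some motifs had similar or lower shares in members than in the other regions. AP-1, the FOS and JUN dimer, matched 52 members (5.2%) and 6.04% of the others. By rank its share was 6.0% in ranks 1 to 100, 8.0% in ranks 101 to 250 and 4.8% in ranks 251 to 500. It was 4.4% both in ranks 501 to 1000 and in ranks 1001 to 2000, so the tallest members were not lower. TEAD, the DNA-binding partner of YAP, matched 87 members (8.7%) and 9.30%, and the E-box CAGCTG matched 126 members (12.6%) and 15.4%. Low counts were seen for the word AGATAAG of the GATA factors, with 4 members (0.4%) and 1.11% of the others, for the homeobox word TAATTA, with 4 members (0.4%) and 1.25%, and for the RUNX word TGTGGTTT, with 5 members (0.5%) and 0.952%. Members are richer in G and C than the other regions. The part of base composition in these shares, and in those of the remaining motifs, was not tested. SRF's CArG box matched 7 members (0.7%) and 0.743% of the others.

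AP-1 matches in members were spread along the window, with 31.03% within 25 bp of the centre, against 34.8% in the other regions, and 22.4% had a footprint in both replicates, against 8.44%. The tallest AP-1 member was the duplicated rank 6. Next came rank 32 (6437 bp upstream of Trappc9), with 6.52 in replicate 1 and 5.31 in replicate 2, whose match lies at the edge of the window.

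**Figure D3:**
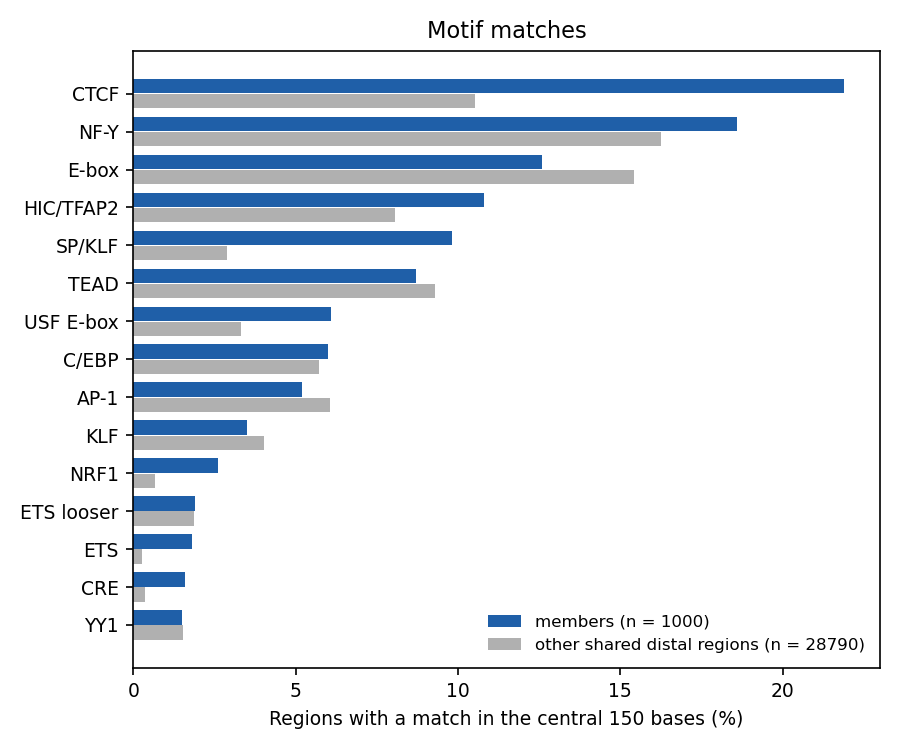
Share of regions with at least 1 match in the central 150 bases (horizontal axis, per cent) for the motifs with 15 or more member matches, with members in blue above and the other shared distal regions in grey below. The widest gap is at CTCF, 21.9% of members against 10.5%, though ranks 1001 to 2000, just outside the members, hold more (28.1%). AP-1 and TEAD are near equal in the sets, and the E-box CAGCTG is lower in members.

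The remaining motifs with 20 or more member matches were NF-Y with 186 (18.6%, against 16.3%), the USF E-box with 61 (6.1%, against 3.31%), C/EBP (TTGCNNAA) with 60 (6.0%, against 5.72%), KLF (CCCCACCC) with 35 (3.5%, against 4.03%) and the HIC/TFAP2 word GCCNNNGGC with 108 (10.8%, against 8.05%). Their tallest uncopied holders were rank 2 for NF-Y, rank 26 for the USF E-box, rank 86 for C/EBP, rank 47 for KLF and rank 6 for HIC/TFAP2. Motifs with fewer member matches were a looser ETS word (ACAGGAAG) in 1.9% of members and 1.86% of the others, YY1 (AAGATGGC) in 1.5% and 1.53%, FOX (TGTTTAC) in 1.2% and 1.65%, the Twist E-box (CATATG) in 1.2% and 1.93%, and NF-kB (GGGANTTCC) in 0.9% and 0.650%. The posterior HOX word TTTATGG matched 0.7% of members and 1.22% of the others, RFX (GTTGCCATG) 0.6% and 0.372%, STAT (TTCCNGGAA) 0.4% and 0.611%, and GLI (GACCACCCA) 0.2% and 0.156%. The tRNA B box (GGTTCGANT), an internal promoter element, matched 0.7% and 0.184%. By name, NFI matched 1.3% of members and 2.09% of the others, REST 0.3% and 0.497%, MEF2 0.2% and 0.174%, and the glucocorticoid receptor 0.1% and 0.135%. ZNF143 (CTACAATTC) matched no member and 0.0625% of the others, the nuclear receptor motif no member and 0.0521%, and the p53 family motif no region of either set, so these zeros are near the background. No motif of the 34 searched was found in 259 members (25.9%), against 34.1% of the other regions. No match says only that these letters are not in the central window.

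**Figure D4:**
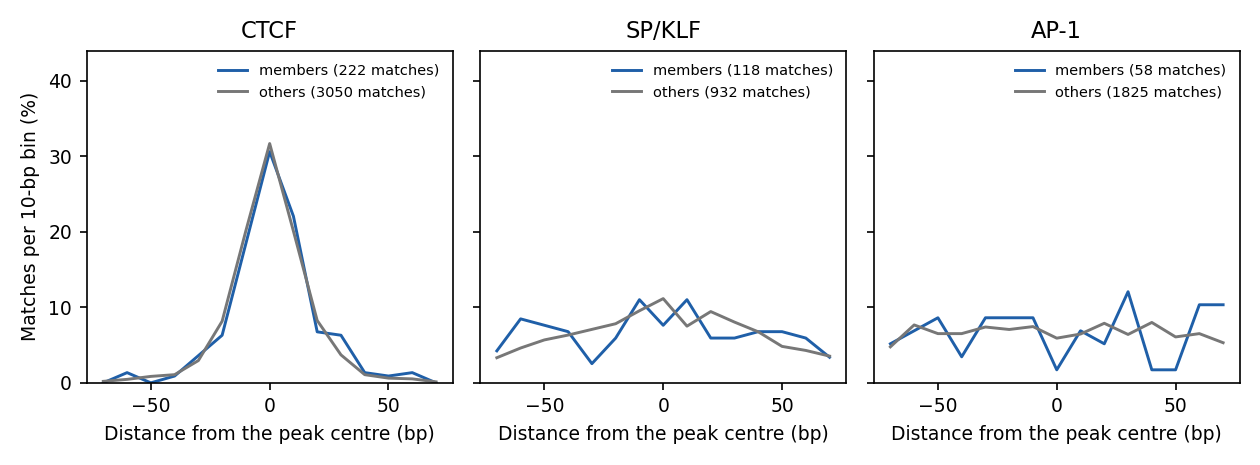
Distance of each motif match from the peak centre (horizontal axis, bp) against the share of matches per bin of 10 bp (vertical axis, per cent), for members (blue) and the other shared distal regions (grey), with CTCF, SP/KLF and AP-1 in a panel each. CTCF matches gather at the centre in both sets, with a median distance of 8 bp, while AP-1 matches have medians of 34 and 36.5 bp and show no such gathering.

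tRNA genes, which RNA polymerase III transcribes from promoters inside the gene, lay under 28 members (2.8%) and under 0.309% of the other regions. RefSeq lists 386 tRNA genes on chromosomes 1 to 19, of which 28 lay under a member and 119 under any shared distal region. The tallest was rank 55, printed above, over an asparagine tRNA gene (n-TNgtt14), with 6.43 in replicate 1 and 4.37 in replicate 2. Rank 73 over n-THgtg3 had 5.57 in replicate 1 and 3.99 in replicate 2, and rank 92 over n-TRccg1 had 5.56 in replicate 1 and 3.52 in replicate 2. Of the 28, ranks 228 (n-TYgta7) and 624 (n-TWcca6) were higher in replicate 2. Rank 228 had 3.61 in replicate 1 and 3.85 in replicate 2, and rank 624 had 2.77 in replicate 1 and 2.78 in replicate 2. Ranks 228 and 722 aligned elsewhere.

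Enhancers on record in RefSeq, most of them tested in mouse embryos as transgenes, overlapped 14 members (1.4%) and 0.712% of the other regions. Those tests were made in embryos and not in bladder. Rank 35, in an intron of Atoh8, had 6.16 in replicate 1 and 5.00 in replicate 2 and lay in element mm123, which was active in the neural tube of 9 of 11 embryos. That element was also active in the limb and the nose, each in 7 of 11 embryos, and in the heart in 5 of 11. Rank 36, near Irf2bp2, had 5.99 in replicate 1 and 5.45 in replicate 2 and lay in mm1295, active in the forebrain of 6 of 9 embryos. Ranks 89 near Fos and 106 near Fosb lay in elements active in the heart, mm260 in 5 of 6 embryos and mm567 in 3 of 6.

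A protein-coding gene starting within 100 kb was found for 949 members, and each was assigned to the nearest. Together they reached 827 of 20780 protein-coding genes, so 3.98% of genes had a member, and 737 of those genes had a single one. Apart from Sfi1, the genes with at least 4 were Ptma with 6 and 1700001O22Rik with 4, and 14 genes had 3. Of all regions assigned to a gene, 3.77% were members. Nearest is not the same as regulated, and no contact between a member and a gene was measured.

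At Ptma the members formed a string on both sides of the gene. The farthest, rank 24 (39105 bp upstream), had 8.22 in replicate 1 and 4.74 in replicate 2. Rank 237 (24945 bp upstream, with a CTCF match) had 4.37 in replicate 1 and 2.82 in replicate 2, and rank 242 (22435 bp upstream) had 4.12 in replicate 1 and 2.96 in replicate 2. The 3 others lay within 10 kb of one another: rank 13, 1325 bp upstream of the start, rank 923 in an intron, with 4.11 in replicate 1 and 1.71 in replicate 2, and rank 370, 5744 bp downstream of the nearest Ptma start, with a CTCF match, with 3.84 in replicate 1 and 2.49 in replicate 2. Another 8 shared distal regions were assigned to Ptma without being members, of which the tallest had 2.33 in replicate 1 and 1.70 in replicate 2. Replicate 1 was higher at each of the 6 members.

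**Figure D5:**
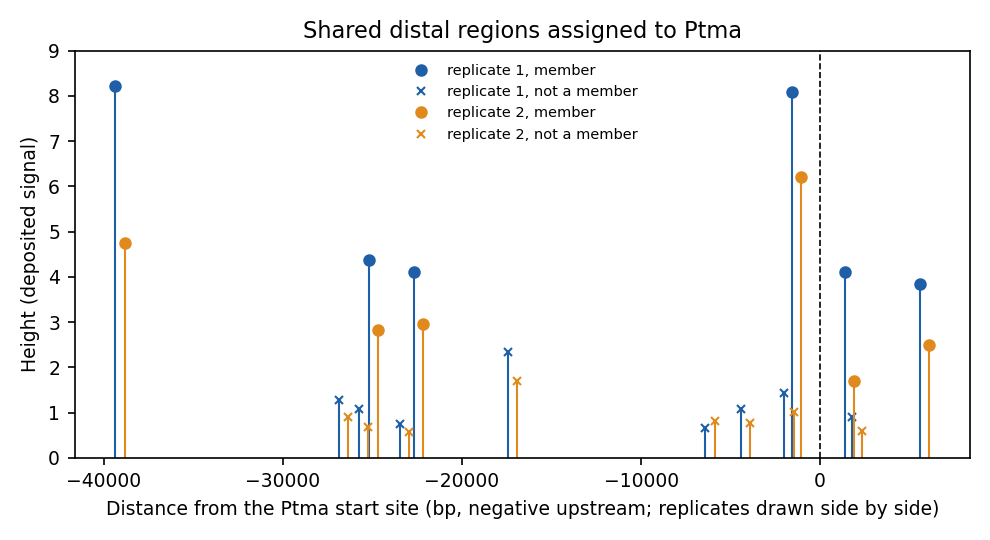
Heights (vertical axis, deposited signal) of the 14 shared distal regions assigned to Ptma by their distance from its annotated start (horizontal axis, bp, negative upstream), with replicate 1 in blue and replicate 2 in orange, members as dots and other regions as crosses; the replicates are drawn side by side and the dashed line marks the start. Members at -39105 and -1325 bp exceed 8 in replicate 1, and no cross exceeds 2.33.

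At 1700001O22Rik the 4 members were ranks 123, 346, 697 and 972, between 2.94 and 6.26 in replicate 1 and between 1.90 and 3.14 in replicate 2. Members also lay near one another elsewhere: 138 had another member within 10 kb, or 106 when aligned members were left out. Of the other shared distal regions, a denser set, 52.9% had another of their own kind within 10 kb, so the counts cannot be set against each other directly. Apart from the strings of 5 and 9 at Sfi1, the longest run was 4 members over 13300 bp on chromosome 11 at Msl1 and Nr1d1, between 2.40 and 6.13 in replicate 1 and between 2.38 and 4.36 in replicate 2.

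Gene lists were read against the 3.98% of all protein-coding genes that had a member, counting only list genes on chromosomes 1 to 19. Immediate early and AP-1 genes, which cells switch on within minutes of a stimulus, had the largest share with a member among lists of 10 or more genes, 7 of 20, with 8 members or 15.1% of the regions assigned to them. Rank 89 (18539 bp upstream of Fos, an AP-1 subunit) had 4.93 in replicate 1 and 4.27 in replicate 2, and rank 119 downstream of it had 4.96 in replicate 1 and 3.46 in replicate 2. Rank 99 (26344 bp downstream of the start of Egr1, a zinc finger factor) had 5.15 in replicate 1 and 3.64 in replicate 2. Rank 106 near Fosb had 4.73 in replicate 1 and 3.94 in replicate 2, rank 124 near Ier2 had 4.83 in replicate 1 and 3.51 in replicate 2, and rank 537 near Nr4a1, an orphan nuclear receptor, had 3.03 in replicate 1 and 2.64 in replicate 2. Junb and Ier3 had 1 member each, of ranks 661 and 727. Of these 8 members, only that of Ier3 held an AP-1 match.

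Of the TGF-beta and BMP pathway genes, 5 of 19 had a member, with 7 members or 8.86% of the regions assigned to the list. Id1, Id2 and Id3 encode inhibitors of basic helix-loop-helix factors, and Ski and Smad7 inhibit TGF-beta signalling. Rank 68 at Id1 is given above. Rank 239 (3016 bp upstream of Id3) had 4.03 in replicate 1 and 3.05 in replicate 2, rank 270 in an intron of Ski had 3.63 in replicate 1 and 3.23 in replicate 2, and rank 281 (1681 bp upstream of Id2) had 4.17 in replicate 1 and 2.72 in replicate 2. The member assigned to Smad7, rank 696, lies 30917 bp downstream of its start and had 2.70 in replicate 1 and 2.58 in replicate 2.

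Among Hippo pathway genes and targets, 3 of 10 had a member. They were Tead3, a TEAD factor, with rank 161, Amotl2, an angiomotin, with rank 405, and Ccn2, a secreted YAP target, with rank 625. Rank 405 lies 49000 bp downstream of the Amotl2 start, in an intron of Gm47416, and rank 625 lies 29491 bp downstream of the Ccn2 start. The member near Tead3 had 4.66 in replicate 1 and 3.18 in replicate 2. Among actin cytoskeleton genes 2 of 14 had one, Pdlim7 with ranks 651 and 857 and Actg1 with rank 912. Members were 8.11% of the regions assigned to the Hippo list and 4.05% of those assigned to the actin list, against 3.77% over all genes.

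Among genes that define bladder cell types, the tallest member was at rank 91 and the next at rank 288. In whole tissue, fewer cells of a type and less open chromatin per cell cannot be told apart. Smooth muscle genes had 1 of 20 with a member, Smtn, which encodes the contractile-cell protein smoothelin, at rank 91 with 5.14 in replicate 1 and 3.84 in replicate 2. Another 46 shared distal regions were assigned to 18 smooth muscle genes without being members, so members were 2.13% of the assigned regions there, against 3.77% over all genes. The urothelium, the lining epithelium, had 3 of 25: Gata3 (rank 452, 3.65 in replicate 1 and 2.37 in replicate 2), Upk3b, a uroplakin (rank 650, 3.34 in replicate 1 and 2.11 in replicate 2), and Krt8, a keratin (rank 701, 2.60 in replicate 1 and 2.81 in replicate 2). Rank 701 lies 19991 bp downstream of the Krt8 start, and its nearest RefSeq start is that of Krt78. Fibroblast and mesenchyme genes had 4 of 23: Col1a1 (rank 288, 3.79 in replicate 1 and 2.95 in replicate 2), Pdgfrb (rank 446), Meis1 (rank 522) and Col6a1 (ranks 669 and 922). Members were 3.36% of the regions assigned to that list and 4.62% of those assigned to the urothelium list, so both shares lay near 3.77%. Upk3b also stands on the mesothelium list, where it alone of 6 genes had a member.

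Other lists covered cell types that accompany or could contaminate bladder tissue. None of 11 endothelial genes, 8 genes of peripheral glia and neurons, 7 of striated muscle and 4 of hepatocytes had a member. Shared distal regions that were not members numbered 62 at 9 endothelial genes and 30 at 7 genes of glia and neurons. Striated muscle had 4 such regions at 4 genes, and hepatocytes 2 at 2 genes. Immune genes had 2 of 9, Spi1, which encodes the myeloid factor PU.1 (rank 605, 3.09 in replicate 1 and 2.37 in replicate 2), and Adgre1, a macrophage receptor (rank 822, 3.12 in replicate 1 and 1.98 in replicate 2). Rank 822 lies 22820 bp upstream of the Adgre1 start. The erythroid list had 1 of 4, Klf1, with a member in a coding exon (rank 547, 3.54 in replicate 1 and 2.24 in replicate 2).

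Lists of 4 to 25 genes are too short to set a share apart from 3.98% by eye, and no list was tested. The labels give 1 tissue, age and sex, so nothing here shows whether any member is particular to the bladder. False discovery rates were low at every member: the lowest rate inside it was at most 3.82e-08 in replicate 1 and 1.05e-06 in replicate 2. These rates come from the same libraries as the heights that chose the members, so they are a description and not separate support.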

How the data were processed

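DNase-seq libraries of urinary bladder from 2 replicates of one group of mice were analysed from files the authors deposited. Peak heights are the authors' deposited signal on a scale that no source names, and the authors' deposited cut rate lists give a false discovery rate (a q-value) per stretch of bases, named so by the files. Per the deposited file description, each list came from its sample's own filtered alignments on mm10; no aligner, caller or read depth is named there. Peaks of the longer list per replicate were merged, filtered by distance to GENCODE M21 starts (more than 1 kb) and ranked. Words of 36 bases and blastn 2.17.0 (at least 90% identity over at least 50% of a region) were searched in mm10 without alternate and patch sequences. Motifs were searched on both strands in the 150 central bases. Tables were built with pandas 2.3.3, scipy 1.17.1 and numpy 2.4.6 in Python 3.11.15, and the word counts, merging, choice of members and motif search were tested on simulated data. Members, motifs and gene lists were chosen with earlier results of these data known. The regions named were the 12 tallest not copied, the 6 tallest copied, the edge, motif examples, genes with 4 or more members and up to 5 genes per list; others were named after their values were seen. The 95% Poisson intervals treat each height step as 1 count, an assumption, and cover counting error only. With 1 group and 2 replicates, no test was made. One gene list is not reported here.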

Additional observations from a re-analysis of the deposited data

How the results depend on the processing

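Of 85 alternative values, 74 stayed within 1.5 times of the reported count or within the replicate spread. Some of the 74 had little room to move. The footprinted and shared counts stood at 999 and 1000 of 1000 members. The shorter peak lists and the 50% overlap rule gave the main counts unchanged. The 74 are therefore no measure of how robust the results are. Taking 500 members made the set smaller, so lower counts follow from its size. Of the 500, 500 were shared with the main choice, 181 were intronic, 499 footprinted and 60 clustered, and 93 held a CTCF match and 30 an AP-1 match. Of the 1000 members, 344 were intronic, 999 footprinted and 138 clustered, and 219 held a CTCF match and 52 an AP-1 match. A clustering distance of 50 kb gave 311 clustered members, against 138 at 10 kb. Ranking by height times width gave 143 with a CTCF match, against 219. The copied count of 34 became 13 with words of 76 bases, 65 with a limit of 10% of words and 58 by alignment. Ranking on one replicate alone gave 876 to 884 shared members, 29 to 44 copied, 125 to 144 clustered, 342 to 361 intronic, 216 to 217 with CTCF, 45 to 52 with AP-1, and 998 footprinted with either replicate. Median heights were 3.38 in replicate 1 and 2.48 in replicate 2. Adding RefSeq starts to the distance rule, an alternative chosen after seeing the data, kept 897 members, with 238 CTCF matches. Leaving out the aligned members, also chosen afterwards, left 106 of 942 clustered and 217 with CTCF. No paired analysis was possible because there was a single group. The replicates ordered some neighbours of rank 1000 oppositely, so the edge of the set is not sharp. Sequencing depth is not given, and counting intervals cover counting error only.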
